A study of Homo sapiens with 6 samples.

Results

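Eukaryotic translation initiation factor 3 (eIF3) was followed at the transcript level through 10 of its subunit genes, EIF3A, EIF3B, EIF3D, EIF3E, EIF3F, EIF3G, EIF3H, EIF3I, EIF3K and EIF3M. They are 10 of the 32985 gene rows in the expression table, and all 10 were among the 11725 genes with a mean of at least 1 FPKM (fragments counted per kilobase and scaled to the depth of the library) that entered the test. The complex was selected because EIF3B was lower and EIF3F was higher in this same comparison, so the members' differences between the groups are given as a description, and where a member is said to be past the threshold this restates how the complex was selected and supports nothing. Poly(A) RNA was sequenced from 8505C cells, an established line derived from anaplastic thyroid carcinoma (ATC), grown in RPMI-1640 medium with fetal bovine serum. Cells received control siRNA (siCtrl, 3 libraries, genotype labelled wild type) or NUF2 siRNA (siNUF2, 3 libraries, genotype labelled NUF2 knockdown). The sample titles of both groups give 24 h. NUF2 encodes a subunit of the NDC80 kinetochore complex. The knockdown was transient and used a single NUF2 siRNA in 1 cell line. Neither the labels nor the methods say whether the 3 libraries of a group came from separate cultures, so every p-value below measures the spread between these libraries, which may be technical.

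eIF3 binds the small ribosomal subunit, keeps it apart from the large subunit, and holds it together with the cap-binding complex eIF4F while the messenger RNA is loaded and scanned for a start codon. Its core is an arch of subunits with PCI domains (among them EIF3A, EIF3E, EIF3K and EIF3M) and MPN domains (EIF3F and EIF3H), a plan shared with the lid of the proteasome and with the COP9 signalosome. EIF3B, EIF3G and EIF3I form a mobile module tied to the arch through EIF3A, and EIF3D sits at the edge of the complex and can itself contact the cap of some messenger RNAs.

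Many messenger RNAs of the translation apparatus begin with a C followed by an unbroken run of pyrimidines, the 5′ terminal oligopyrimidine tract, and the starts of the eIF3 genes are shown because the members fell into those that carry such a tract and those that do not. The windows below are 30 bases of the GRCh38.p14 RefSeq sequence, read 5′ to 3′ on the strand of the gene, with 10 bases before and 20 bases from the annotated start. Capitals mark the run of pyrimidines that begins at the start base. RefSeq windows were matched for 6 of the 10 members. They lay at chr7:2354817-2354846 (plus strand) for EIF3B, chr22:36529147-36529176 (minus) for EIF3D, chr11:7987327-7987356 (plus) for EIF3F, chr1:32222397-32222426 (plus) for EIF3I, chr19:38619178-38619207 (plus) for EIF3K and chr11:32583821-32583850 (plus) for EIF3M.
EIF3B: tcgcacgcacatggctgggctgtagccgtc
EIF3D: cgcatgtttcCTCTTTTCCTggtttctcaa
EIF3F: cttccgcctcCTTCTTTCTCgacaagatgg
EIF3I: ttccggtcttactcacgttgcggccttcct
EIF3K: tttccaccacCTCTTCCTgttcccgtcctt
EIF3M: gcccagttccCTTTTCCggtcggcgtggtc
A C at the start followed by at least 4 pyrimidines was found in 4 of these 6 windows, against 1429 of the 35116 starts in the same table (4.07%). The run was 10 bases long in EIF3D and EIF3F, 8 in EIF3K and 7 in EIF3M, whereas the start base of EIF3B and EIF3I was an A. With the starts of the canonical GENCODE release 44 transcripts, 7 of the 10 members (EIF3A, EIF3D, EIF3E, EIF3F, EIF3H, EIF3K and EIF3M) carried the tract, against 593 of 10296 tested genes with such a start (5.76%). These are annotated starts and were not measured in these cells. EIF3B, the gene selected as lower, was among the 3 members without a tract, together with EIF3G and EIF3I, whose levels were nearly the same in both groups. The EIF3G start has a run of 4 pyrimidines, short of the cutoff used. EIF3M, which carries the tract, was lower as well, and whether the tract has a part in any change was not tested.

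The libraries held between 61257859 and 69755291 gene counts. NUF2 FPKM was 14.8, 14.5 and 12.2 in siCtrl replicates 1 to 3 and 1.53, 2.05 and 1.56 in siNUF2 replicates 1 to 3, so that 12.4% of the siCtrl mean remained (log2 fold change -2.99, SE 0.17, adjusted p = 5.1e-04, edgeR quasi-likelihood test). Among the thyroid markers, NKX2-1 reached a mean of 1 FPKM, whereas TG and SLC5A5, which mark hormone-producing thyroid cells, were near 0. TSHR was not analysed here. All 4 mesenchymal markers (VIM, FN1, CDH2 and ZEB1) and 3 of 5 epithelial markers (KRT8, KRT18 and KRT19) reached 1 FPKM. Of 4 markers of other cell types, CD68 and CDH5 also reached 1 FPKM, and PTPRC and PECAM1 did not. Over all genes tested, 468 of 11725 (3.99%) passed an adjusted p of 0.05, 289 lower (2.46%) and 179 higher (1.53%) in siNUF2. The 6 libraries are bulk RNA, in which fewer cells of a type and less RNA per cell cannot be told apart.

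EIF3B fell from 40.2 ± 2.99 FPKM in siCtrl to 28.5 ± 3.08 FPKM in siNUF2 (mean ± SD, n = 3), that is to 70.9% of the control mean. EIF3F went the other way, from 20.8 ± 1.33 FPKM to 34.0 ± 2.86 FPKM, or 163% of the control mean. The other 8 members had means between 89.3% and 110% of control. By count, 2 of the 10 members were past the threshold, 1 lower and 1 higher, beside the 3.99%, 2.46% and 1.53% of all genes given above, but nothing can be read from these shares because the members were selected on the same contrast. The siCtrl and siNUF2 libraries did not overlap in 4 of the 10 members (EIF3B, EIF3F, EIF3K and EIF3M), beside 23.9% of all genes tested. The median log2 fold change was 0.06 over the members and 0.0069 over all genes, and the median size of the change regardless of sign was 0.103 and 0.170. In the order of the fit, EIF3B (log2 fold change -0.48) was the last member past the threshold, at rank 456 of 11725 genes. The next member, EIF3K (0.16), was far outside it at rank 3328.

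**Figure D1:**
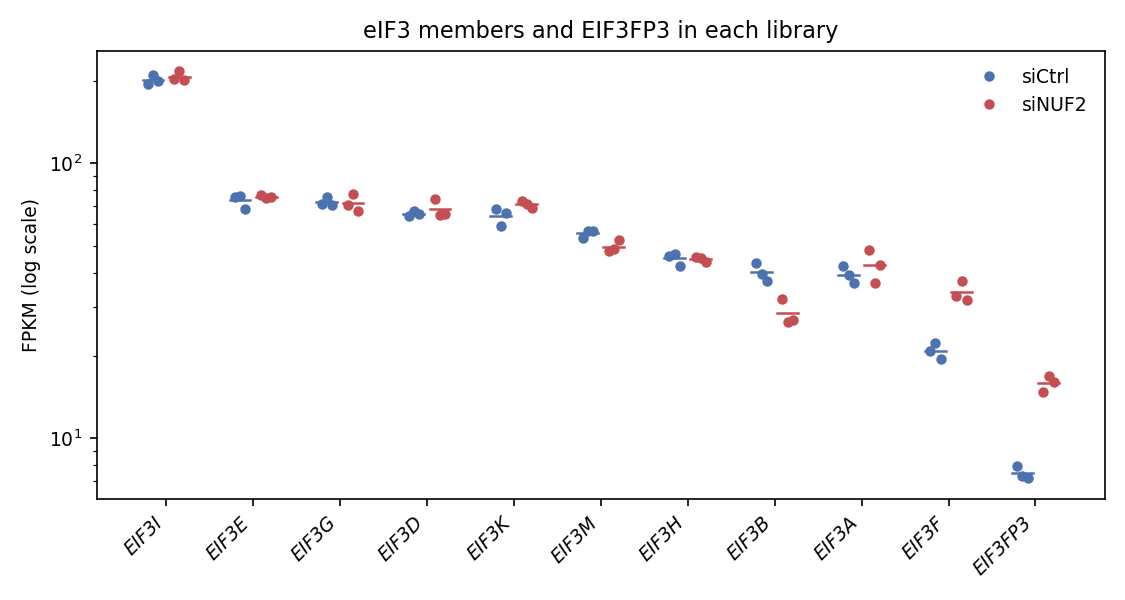
FPKM (log axis) of the 10 eIF3 members and of EIF3FP3, a processed copy of EIF3F described further on, in each library, with siCtrl and siNUF2 points side by side and short lines at the group means. The 3 siNUF2 points of EIF3B (26.4 to 32.0 FPKM) lie below its siCtrl points (37.5 to 43.4), those of EIF3F (31.8 to 37.2) lie above its siCtrl points (19.5 to 22.1), and EIF3I stands highest at 194 FPKM or more.

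EIF3B (ENSG00000106263, chr7:2354086-2380745, GRCh38, plus strand) encodes the scaffold that carries EIF3G and EIF3I and binds EIF3A. Its FPKM was 43.4, 39.7 and 37.5 in siCtrl replicates 1 to 3 and 32.0, 26.4 and 27.0 in siNUF2 replicates 1 to 3. All 3 siNUF2 libraries were below the lowest siCtrl library, with 5.42 FPKM between the closest libraries of the groups. This gap was smaller than the range within siCtrl (5.93 FPKM) and within siNUF2 (5.60 FPKM). On TMM-normalised counts the log2 fold change was -0.48 (SE 0.11), a fold of 0.719, and the differences within replicate numbers 1, 2 and 3 were -0.43, -0.55 and -0.45. Between 17552 and 31592 fragments were counted for the gene per library, so counting error is small beside the spread between libraries. Leaving out any of the 6 libraries gave values between -0.56 and -0.42, and EIF3B was then no longer past the threshold. SNX8 lies on the opposite strand and overlaps EIF3B. It was at 7.73 FPKM in siCtrl and 9.46 FPKM in siNUF2 (log2 fold change 0.31, SE 0.19, adjusted p = 0.462, edgeR), and whether the counting used strand is not given in the sources used here.

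The other members of that module kept their levels within the spread of the libraries. EIF3G (ENSG00000130811), an RNA-binding subunit that contacts the scanning ribosome, was at 71.4, 75.5 and 70.5 FPKM in siCtrl and 70.4, 77.2 and 66.9 FPKM in siNUF2 (log2 fold change 0.0011, SE 0.093). EIF3I (ENSG00000084623), a propeller-shaped subunit bound to the tail of EIF3B, was at 194, 209 and 199 FPKM in siCtrl and 203, 216 and 200 FPKM in siNUF2 (log2 fold change 0.06, SE 0.09). Neither gene separated the groups. EIF3A (ENSG00000107581), the large subunit that joins the module to the arch, was at 42.3, 39.3 and 36.6 FPKM in siCtrl and at 48.4, 36.6 and 42.8 FPKM in siNUF2. Its log2 fold change was 0.13 (SE 0.12), with differences of 0.20, -0.07 and 0.24 within replicate numbers 1, 2 and 3, the widest span of any member. The EIF3A, EIF3G and EIF3I loci each overlap a gene on the opposite strand. For EIF3A this is NANOS1, at a mean of 1.99 FPKM in siCtrl and 1.94 FPKM in siNUF2. For EIF3I it is TMEM234, at 2.66 and 2.75 FPKM. For EIF3G it is P2RY11, at 9.82 FPKM in siCtrl and 3.23 FPKM in siNUF2 (log2 fold change -1.57, SE 0.88, adjusted p = 0.404, edgeR).

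EIF3F (ENSG00000175390, chr11:7970251-8001862, GRCh38, plus strand) encodes an MPN subunit at the edge of the arch and was the member with the largest difference. Its FPKM was 20.8, 22.1 and 19.5 in siCtrl replicates 1 to 3 and 32.9, 37.2 and 31.8 in siNUF2 replicates 1 to 3. Every siNUF2 library was above every siCtrl library, and the gap between the groups, 9.67 FPKM, exceeded the range within either group. The log2 fold change was 0.73 (SE 0.10), a fold of 1.66, with differences of 0.67, 0.79 and 0.72 within replicate numbers 1, 2 and 3. Leaving out any library gave values from 0.65 to 0.77. Counts of EIF3F lay between 13656 and 28206 per library, and no other gene row in the table overlaps its position. EIF3H (ENSG00000147677), the MPN partner of EIF3F in the arch, was at 46.1, 47.0 and 42.4 FPKM in siCtrl and 45.5, 45.3 and 43.9 FPKM in siNUF2 (log2 fold change 0.01, SE 0.08). UTP23, on the opposite strand of the EIF3H locus, was at 7.45 FPKM in siCtrl and 8.19 FPKM in siNUF2. The MPN pair thus held 1 gene with separated groups and 1 gene whose siNUF2 libraries lay inside the siCtrl range.

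Because EIF3B and EIF3F moved in opposite directions, the ratio of their counts within a library changed more than either gene. This follows from how the complex was selected and supports nothing further. EIF3F counts were 0.501, 0.581 and 0.543 times those of EIF3B in siCtrl replicates 1 to 3 and 1.07, 1.47 and 1.23 times in siNUF2 replicates 1 to 3. EIF3F counts were thus below EIF3B counts in each siCtrl library and above them in each siNUF2 library. The counts are not divided by length, so the ratio compares libraries and not the levels of the pair. The 10 members together took 0.353%, 0.358% and 0.341% of all gene counts in siCtrl and 0.360%, 0.355% and 0.351% in siNUF2, so the groups overlapped for the summed signal.

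Among the PCI subunits, EIF3K and EIF3M separated the groups by small amounts in opposite directions. EIF3K (ENSG00000178982), a small subunit at the end of the arch, was at 68.1, 59.3 and 65.9 FPKM in siCtrl and 72.9, 71.4 and 68.6 FPKM in siNUF2. The log2 fold change was 0.16 (SE 0.09), and the gap between the closest libraries of the groups was 0.503 FPKM. EIF3M (ENSG00000149100), which sits beside EIF3F and EIF3H in the arch, was at 53.4, 56.8 and 56.9 FPKM in siCtrl and 47.8, 48.7 and 52.7 FPKM in siNUF2. Its log2 fold change was -0.14 (SE 0.09), and 0.683 FPKM lay between the closest libraries. EIF3E (ENSG00000104408), also known as INT6, was at 75.7, 76.4 and 68.3 FPKM in siCtrl and 76.4, 74.8 and 75.4 FPKM in siNUF2 (log2 fold change 0.06, SE 0.08). EIF3D (ENSG00000100353), the cap-contacting subunit, was at 64.2, 67.0 and 65.5 FPKM in siCtrl and 74.4, 64.6 and 65.3 FPKM in siNUF2 (log2 fold change 0.07, SE 0.09). A single library, siNUF2 replicate 1, stood above the others for EIF3D.

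**Figure D2:**
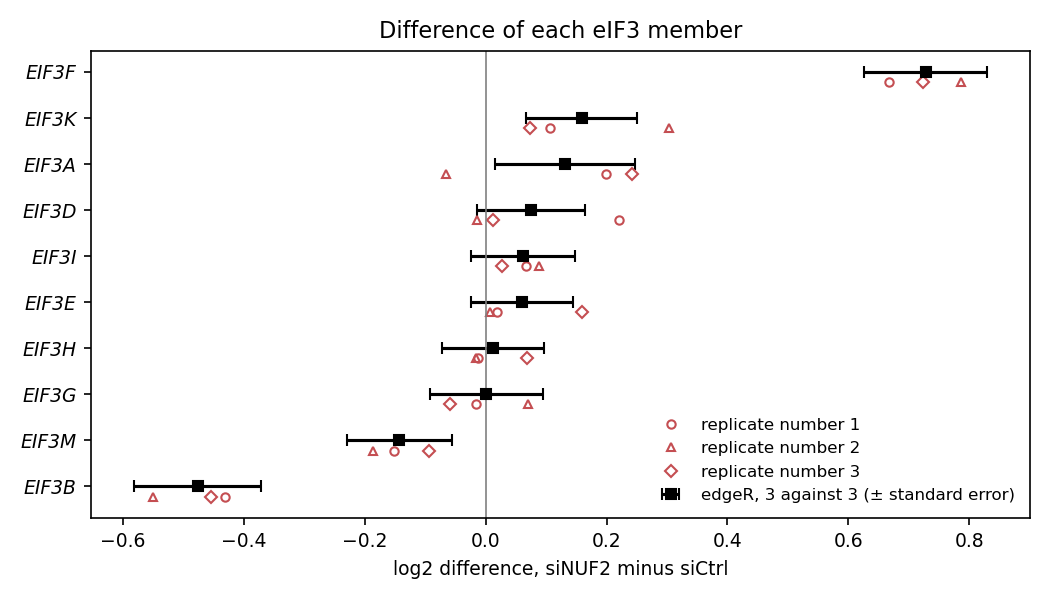
Log2 fold change (siNUF2 over siCtrl, TMM-normalised counts) of each eIF3 member with its SE, and the difference within each replicate number as separate points. EIF3F (0.73) and EIF3B (-0.48) stand apart from the other 8 members, which lie between -0.14 and 0.16.

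The libraries of siCtrl and siNUF2 were paired by replicate number because same-numbered libraries deviated together, although the labels state no pairing. On that pairing, 6 of the 10 members (EIF3B, EIF3E, EIF3F, EIF3I, EIF3K and EIF3M) had the same sign in all 3 numbers, with EIF3B and EIF3F in the count through the selection. Of 11686 tested genes with counts in every library, 6063 (51.9%) had the same sign in all 3 numbers. The members' count was 5 with FPKM ratios in place of TMM-normalised counts. With the replicate number as a block, the members past the threshold were EIF3B and EIF3F, beside 14.5% of all genes tested.

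Of the remaining eIF3 subunits in the table, EIF3C, EIF3CL, EIF3J and EIF3L, none of 4 passed the edgeR threshold, none had an unadjusted p under 0.05, and none was called by DESeq2 or limma. EIF3L, the partner of EIF3K, was at 66.5 ± 7.19 FPKM in siCtrl and 71.1 ± 9.20 FPKM in siNUF2 (log2 fold change 0.12, SE 0.13). EIF3J, a loosely bound subunit at the decoding centre of the ribosome, was at 51.0 ± 6.45 and 44.2 ± 4.27 FPKM (log2 fold change -0.19, SE 0.12). EIF3C and EIF3CL are nearly identical copies between which reads may be split, so their rows are uncertain. EIF3C was at 34.2 ± 3.54 and 35.6 ± 6.75 FPKM, and EIF3CL was at 68.2 ± 1.32 and 77.1 ± 9.69 FPKM. The row EIF3J-DT, a divergent transcript beside EIF3J and no subunit gene, was 0.26 higher on the log2 scale (adjusted p = 0.495, edgeR).

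EIF3F has a processed copy on another chromosome, EIF3FP3 (ENSG00000233426, chr2:58251440-58252525, GRCh38, 1 exon of 1086 nt), whose row also rose. Its FPKM was 7.93, 7.29 and 7.15 in siCtrl and 14.7, 16.9 and 16.0 in siNUF2, which is 213% of the siCtrl mean with no overlap of the groups. The log2 fold change was 1.11 (SE 0.15, adjusted p = 0.00845, edgeR quasi-likelihood test), and the row passed in all 6 fits with 1 library left out. An alignment of the copy with the EIF3F coding sequence gave 1059 identical bases of 1074 aligned positions (98.6%), with 15 substitutions and a longest identical run of 361 nt. A further 12 positions lay in gaps. The stretch below is the first gap-free 60 nt of coding sequence, within an exon, with the most substitutions (3, in capitals). The EIF3F stretch lies in exon sequence at chr11:7994433-7994492 and the copy at chr2:58252112-58252171, both on the plus strand of GRCh38.
EIF3F: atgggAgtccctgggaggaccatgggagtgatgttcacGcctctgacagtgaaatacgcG
EIF3FP3: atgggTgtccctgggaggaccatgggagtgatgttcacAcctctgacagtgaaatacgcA
Of the windows of 150 nt in the copy, the length of 1 read, 212 of 937 (22.6%) occur letter for letter in EIF3F, so a read from there cannot be assigned to either gene by its sequence alone. Counts of EIF3FP3 were 4.39%, 3.79% and 4.23% of EIF3F counts in siCtrl and 5.16%, 5.22% and 5.79% in siNUF2. Both rows are therefore uncertain to the extent that the counting placed reads of 1 gene on the other, and their parts were not separated here. For the same reason the test of EIF3FP3 is no separate support for the rise of EIF3F, which was selected as higher. With the counts of both rows summed, the log2 ratio of the group means was 0.75, beside 0.73 for EIF3F alone.

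An siRNA can bind transcripts other than its target through its seed, and the members were therefore searched for the word TATGGAA, which pairs with bases 2 to 8 of the antisense strand, on the transcript strand only. Of the 10 canonical transcripts, only that of EIF3F held the word in its 3′ UTR, and it held 3 copies. Each copy is shown in 27 nt of GRCh38, plus strand, with the word in capitals, at chr11:7996309-7996335 (site 1), chr11:7999507-7999533 (site 2) and chr11:8000329-8000355 (site 3), which begin 297, 3495 and 4317 nt after the stop codon.
EIF3F site 1: tggttttcaaTATGGAAaggtgtccat
EIF3F site 2: tctaaatgtaTATGGAAaaataaaaat
EIF3F site 3: ctcacttggaTATGGAAtcacaaaatt
The canonical EIF3F transcript is 6920 nt long, 5830 nt of it 3′ UTR. Of the 5 EIF3F transcripts in the table with a coding annotation, 2 hold all 3 copies and 3 hold none, and the gene row sums over them, so which 3′ UTR the cells used was not measured here.

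Genes with the word were lower in siNUF2 on the whole, and EIF3F was higher. Among 10163 tested genes with a 3′ UTR of at least 50 nt, the median log2 fold change was 0.02 for the 8628 with no copy (84.9%), -0.09 for the 1270 with 1 copy and -0.20 for the 220 with 2 copies. For the 45 with 3 or more copies (0.443%) it was -0.18, with 33 lower and 12 higher. In this last class 9 genes were past the threshold and lower, and 2 were past it and higher, EIF3F at 0.73 and ZNF883 at 0.87. EIF3B held no copy of TATGGAA in its 3′ UTR of 556 nt or in its coding sequence. The shorter word ATGGAA, which is contained in the longer word, occurred 1 time in the EIF3B 3′ UTR and 3 times in its coding sequence. In 3′ UTRs of other members it occurred 1 time each in EIF3E and EIF3M and 5 times in EIF3F. In coding sequence it occurred 2 times in EIF3H and 1 time each in EIF3A, EIF3E and EIF3F. The share of all genes with the shorter word is not given here. Without the longer word in its canonical 3′ UTR, EIF3B was like 121 of the 284 genes past the threshold and lower (42.6%). These matches are a description of letters in annotated transcripts, and the part of the siRNA seed in the change of any member was not tested.

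**Figure D3:**
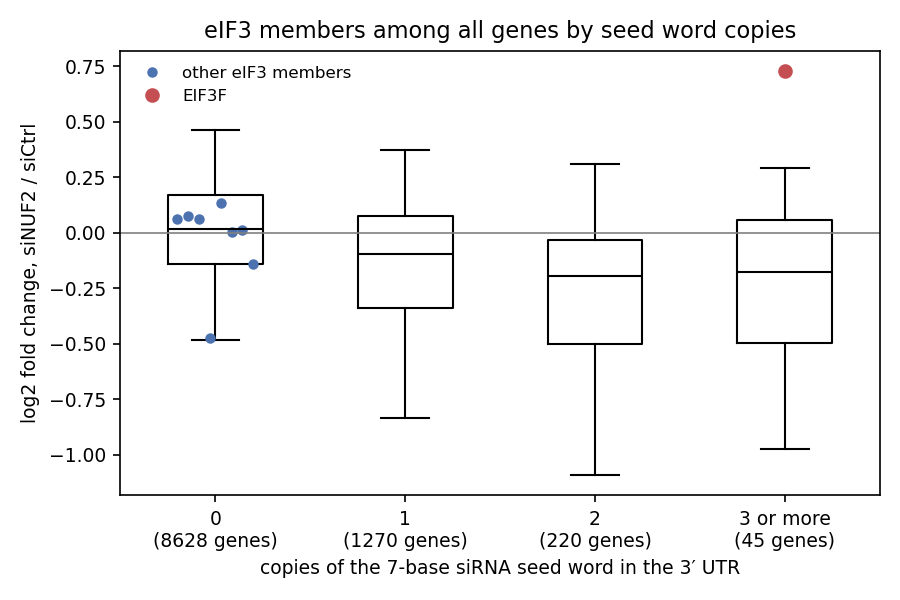
Log2 fold change (siNUF2 over siCtrl) of tested genes by the number of copies of the seed word in the canonical 3′ UTR, as boxes with the median, quartiles and whiskers from the 5th to the 95th percentile, and the eIF3 members with a 3′ UTR of at least 50 nt as points. EIF3F (0.73) is the second highest of the 45 genes with 3 or more copies, whose median is -0.18, and the other members shown have no copy.

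The members differed in level by up to 9.64-fold in control cells on the FPKM scale. The order of the siCtrl means was EIF3I (200.7 FPKM), EIF3E (73.5), EIF3G (72.5), EIF3D (65.5), EIF3K (64.5), EIF3M (55.7), EIF3H (45.2), EIF3B (40.2), EIF3A (39.4) and EIF3F (20.8). Of the 9 pairs of neighbours in this order, 5 did not overlap between their 3 siCtrl libraries (EIF3I and EIF3E, EIF3G and EIF3D, EIF3K and EIF3M, EIF3M and EIF3H, EIF3A and EIF3F), and the other 4 overlapped. All members were well expressed, between the 83.5th percentile of tested genes for EIF3F and the 98.7th for EIF3I.

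This order rests on the length by which the deposited FPKM were divided. For 9518 of 11699 genes (81.4%) the deposited FPKM implied a length within 1% of a constant multiple of the merged exons of all GENCODE transcripts of the gene. Once that constant was divided out, EIF3B had an implied length of 9031 nt, close to its 8989 nt of merged exons, against 2445 nt of coding sequence. EIF3F, EIF3E and EIF3I did not follow the pattern. Their implied lengths were 9425, 6001 and 1724 nt, against 15136, 37761 and 9526 nt of merged exons in GENCODE release 44. For EIF3F the coding sequence is 1074 nt. CPM, counts scaled to the depth of the library, divided by the kilobases of the canonical transcript put EIF3I at 283, EIF3K at 272, EIF3G at 267, EIF3E at 254, EIF3D at 155, EIF3B at 136, EIF3M at 95.4, EIF3H at 85.3, EIF3A at 48.9 and EIF3F at 33.0, and 4 members kept their position. With CPM per kilobase of coding sequence, EIF3M (428) came first and EIF3A (78.4) last, and EIF3F (213) moved up to rank 7, above EIF3D (177) and EIF3B (173). The low level of EIF3F thus held on the first and second scales and not on the third. The divisor of a gene is the same in all libraries, so its choice does not alter the difference between siCtrl and siNUF2. Counts can also change with the length of the transcripts a gene uses, which was not measured here. The coding EIF3F transcripts summed in its row run from 844 to 7540 nt.

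**Figure D4:**
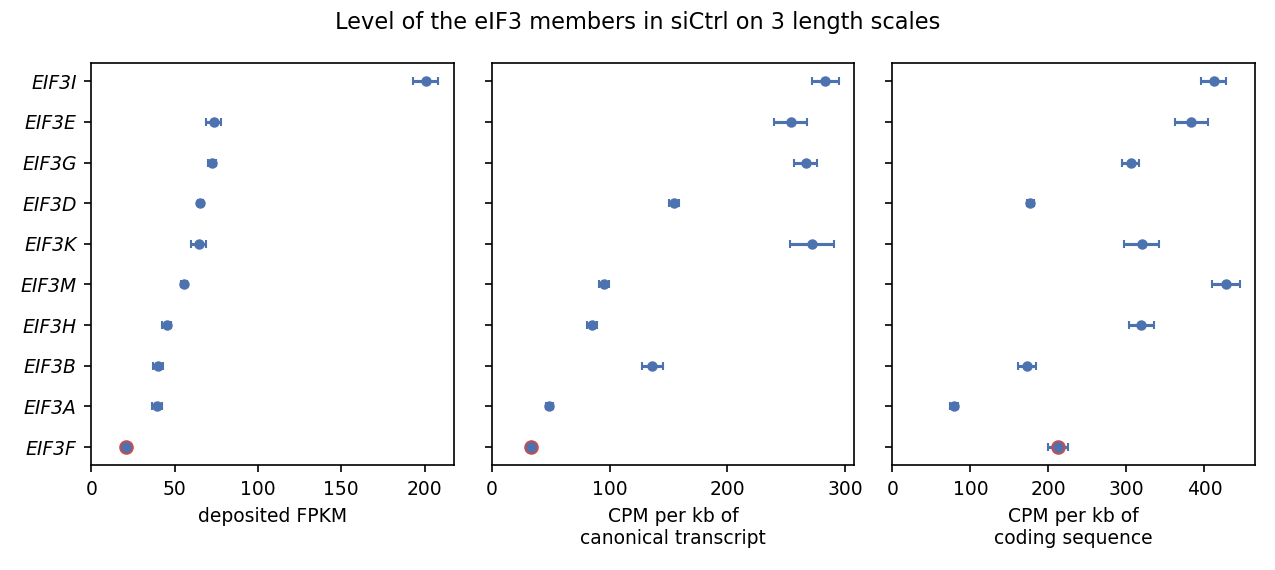
Mean level of each eIF3 member in the 3 siCtrl libraries on 3 scales: deposited FPKM, CPM per kilobase of canonical transcript and CPM per kilobase of coding sequence, with bars for the SD and EIF3F in red. EIF3F is lowest on the first and second scales (20.8 and 33.0) and not on the third (213), where EIF3A is lowest (78.4).

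Outside the members, the initiation pathway held 1 gene past the threshold. Of 39 tested initiation factors, the 4 other eIF3 subunits included, 20 were lower and 19 higher, the median log2 fold change was -0.0021, and EIF4E2 was the only gene called (2.56%, beside 3.99% of all genes). EIF4E2, a cap-binding protein also known as 4EHP that represses translation and does not join eIF4F through eIF4G, was at 10.8, 10.6 and 11.3 FPKM in siCtrl and 7.02, 6.22 and 7.35 FPKM in siNUF2. The groups did not overlap, and EIF4E2 fell to 62.8% of the siCtrl mean (log2 fold change -0.65, SE 0.10, adjusted p = 0.0127, edgeR quasi-likelihood test). The call was lost without siCtrl replicate 1 (adjusted p = 0.0525), without siCtrl replicate 3 (adjusted p = 0.0561) and without siNUF2 replicate 1 (adjusted p = 0.0611). The canonical 3′ UTR of EIF4E2 held no copy of TATGGAA.

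Among the 16 tested factors of eIF4F and messenger RNA binding, EIF4EBP3, an inhibitor that binds eIF4E, had the highest log2 fold change (0.44, adjusted p = 0.500, edgeR). Of the 19 factors of start codon selection and subunit joining, none passed the edgeR threshold, and DESeq2 and limma called none. An unadjusted p under 0.05 by edgeR was found for 2129 of all 11725 genes tested and for 1 of these 19. In that group DENR, which acts in ribosome recycling and reinitiation, was highest (0.35, adjusted p = 0.135), and EIF2B5, the catalytic subunit of the exchange factor for eIF2, was lowest (-0.23, adjusted p = 0.305). With the replicate block, 4 of the 39 passed, beside 14.5% of all genes tested. These 4 were EIF4E2, EIF4A1 (adjusted p = 0.0347), PAIP2 (adjusted p = 0.0334) and DENR (adjusted p = 0.0160, edgeR).

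The factors that act after initiation, and the complexes built like the eIF3 arch, held no gene past the threshold without the block. Of 10 tested elongation and termination factors none was called by edgeR, DESeq2 or limma. In the edgeR fit an unadjusted p under 0.05 was found for 2129 of all 11725 genes tested and for 3 of these 10. The highest log2 fold change was that of EEF2, the translocase of elongation (0.29, adjusted p = 0.326), and the lowest that of EIF5A2, an isoform of the elongation factor eIF5A (-0.56, adjusted p = 0.176). Of 19 subunits of the COP9 signalosome and the proteasome lid, none was called by edgeR, DESeq2 or limma. Beside the 2129 of 11725 genes just given, 2 of these 19 had an unadjusted p under 0.05. COPS8 was highest (0.36, adjusted p = 0.190) and GPS1 lowest (-0.12, adjusted p = 0.556). With the replicate block, EEF1A1, EEF2 and EIF5A2 passed in the former list and COPS8 in the latter, beside 14.5% of all genes tested.

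**Figure D5:**
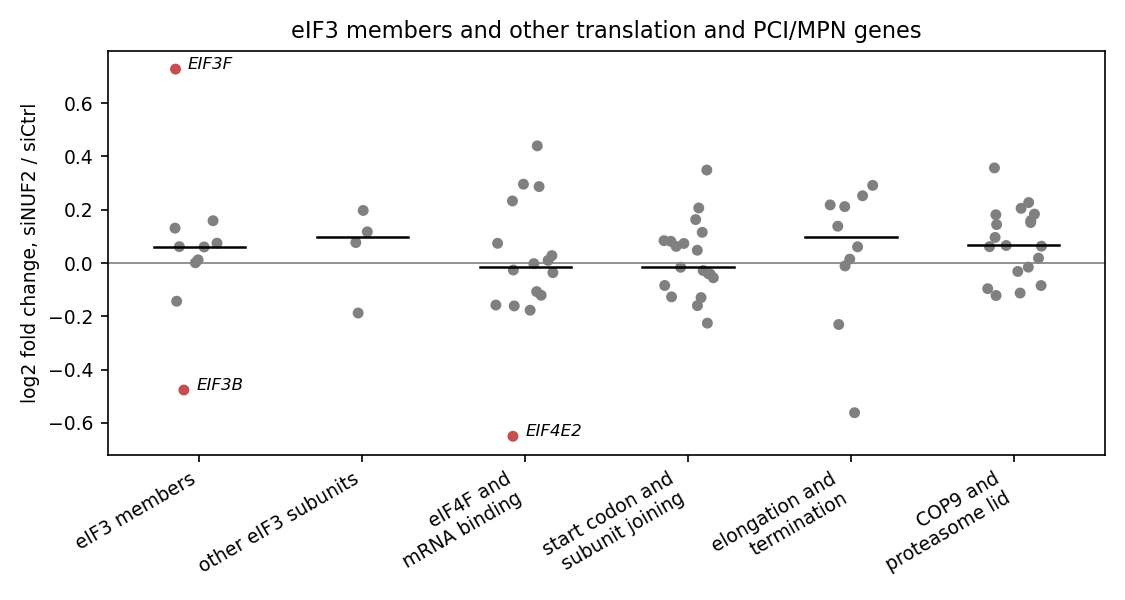
Log2 fold change (siNUF2 over siCtrl) of every tested gene of the eIF3 members, the other eIF3 subunits, the remaining initiation factor lists, the elongation and termination factors, and the COP9 and proteasome lid subunits, with red, named points for genes past the threshold and lines at the list medians. EIF3F (0.73) and EIF3B (-0.48) among the members and EIF4E2 (-0.65) among the other lists are the red points.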

How the data were processed

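The 6 libraries were grouped by their GEO labels. Per the submitters' processing notes and the methods, the authors used fastp (quality control), HISAT2 (alignment, GRCh38) and StringTie. The tool behind the counts, versions, annotation release and strand setting are not given in the sources used here. The authors deposited gene counts and FPKM in a single table, and 0 per-sample columns went unused. Counts were tested with the edgeR 4.0.16 quasi-likelihood test in R 4.3.3 (TMM, no block, mean FPKM of at least 1, Benjamini-Hochberg over 11725 genes, threshold 0.05). Members and gene lists were chosen with earlier results of these data known. Named genes were the members, NUF2, other eIF3 rows, eIF3 pseudogene rows past the filter, and of each list those past the threshold (at most 8), otherwise the highest and lowest; SNX8, other genes overlapping members, ZNF883 and genes called with the block were named after their values were seen. Same-numbered libraries deviated together from their group means (correlations 0.419, 0.428 and 0.539; other pairs -0.316 to -0.126), so the numbers were taken to pair them. Replicates of a group differed beyond sampling noise. Alternatives were DESeq2 1.42.0 and its size factors, no filter, mean FPKM of at least 5, limma 3.58.1 on log2(FPKM + 1) and log2(FPKM + 0.1), the replicate block and each library left out; levels per kilobase of canonical transcript or coding sequence were added after seeing the data. The SE is the log2 fold change over the root of the F statistic. Transcripts came from GENCODE release 44, which held 32855 of 32985 gene identifiers, and start windows from RefSeq. Scripts were tested on simulated data.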

Additional observations from a re-analysis of the deposited data

How the results depend on the processing

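Members near 0 changed sign with the processing, EIF3G in 9 of 13 alternatives (range -0.06 to 0.05) and EIF3H in 5 of 13 (range -0.03 to 0.04), as did EIF3C without siNUF2 replicate 1 (-0.056, and up to 0.21 with another library left out). The count of all genes past the threshold, 468, moved to 188 with no filter, 972 with DESeq2, 1705 with the replicate block and 124 to 251 with 1 library left out. The members past the threshold went from 2 to 1 with no filter, with limma at either pseudocount and with any library left out, because EIF3B was no longer past it. The initiation factors outside the members went from 1 to 4 with the replicate block and to between 0 and 1 with 1 library left out. The block took the elongation and termination factors from 0 to 3 and the COP9 and proteasome lid subunits from 0 to 1. The siCtrl ratio of EIF3I to EIF3F, 9.64 by FPKM, was 8.59 per kilobase of canonical transcript and 1.94 per kilobase of coding sequence, and 9.39 to 9.80 with 1 library left out. The median log2 fold change of all genes was 0.0069, 0.0039 with the size factors of DESeq2, and between -0.0145 and 0.0137 over all alternatives. With 3 libraries a group, an exact permutation test of a single value cannot go below p = 0.1. Depth did not limit the members, which had at least 13436 counts each in every library.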
